A study of Homo sapiens and Mus musculus with 20 samples.

Results

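Clustered Satb1 sites were peaks of the full-length (FL) Satb1 ChIP-seq list in MCF10A cells whose midpoint lay at most 10 kb from the midpoint of another peak of that list on the same chromosome. Of 22877 FL peaks, 5217 were clustered (22.8%, exact 95% binomial interval 22.3 to 23.4). The list was used as deposited and reached down to a fold enrichment of 1.65 and a −log10 q-value of 1.45, so it includes peaks outside the thresholds that the study's methods state. With fold enrichment of at least 5, 20.4% were clustered. In the whole list, joining each peak to every peak in reach gave 2328 clusters. The other 17660 peaks were isolated, with a median distance of 45018.5 bp to the nearest peak. Intervals of shares cover counting error alone, and peaks of a cluster are not independent of each other.

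MCF10A is an established line of human breast epithelial cells that lacks native Satb1. FL Satb1 or a mutant was expressed as a C-terminal eGFP fusion from a cumate-inducible lentiviral vector that had been stably integrated, and cells were sorted to the same fluorescence gate, so each peak is a site of an exogenous fusion protein. The constructs were FL Satb1, ∆HD, which lacks the homeodomain, and N-C1, which keeps the N-terminal domain and the CUT1 domain. Cells with FL Satb1 were also treated for 2 h with camptothecin, an inhibitor of topoisomerase I, or with ICRF-193, an inhibitor of topoisomerase II. Fusion-bound DNA was recovered with an antibody against GFP, and accessible chromatin was profiled by ATAC-seq in native MCF10A cells and in cells with FL Satb1, which gave 5 ChIP lists and 2 ATAC lists, 1 per condition. No comparison between conditions therefore has a replicate check or a test, and the values below stand side by side.

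Satb1 is a chromatin organiser that is best known from thymocytes. It carries several DNA-binding domains (CUT1, CUT2 and the homeodomain) and an N-terminal domain through which molecules associate with each other. It is known for binding A/T-rich DNA whose strands separate under torsional stress, and topoisomerases relieve that stress. Sites that lie close together along a chromosome are of interest for a protein that associates with itself and tethers chromatin loops.

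The sequences below, from the hg19 assembly (GRCh37), show what the peaks of different kinds of cluster contained. Capitals mark matches to the Satb1 consensus YTAWTAR, spelled out as CTAATAA or CTAATAG or CTATTAA or CTATTAG or TTAATAA or TTAATAG or TTATTAA or TTATTAG. Those 8 forms hold the reverse complement of each other, so that 1 search covers both strands, and matches that overlap run into each other in the capitals. A match is a description of the letters, not a bound site, and 25.8% of all 400 bp tiles of the genome held at least 1. The first sequences come from the clusters with the largest summed fold enrichment, on chromosomes 14, 3 and 12 (plus strand).
strong chr14 a (chr14:52209387-52209586, plus strand): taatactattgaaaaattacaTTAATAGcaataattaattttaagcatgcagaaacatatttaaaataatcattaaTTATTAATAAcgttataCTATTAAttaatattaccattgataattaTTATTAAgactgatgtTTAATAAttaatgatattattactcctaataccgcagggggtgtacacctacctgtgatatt
strong chr3 d (chr3:75662307-75662506, plus strand): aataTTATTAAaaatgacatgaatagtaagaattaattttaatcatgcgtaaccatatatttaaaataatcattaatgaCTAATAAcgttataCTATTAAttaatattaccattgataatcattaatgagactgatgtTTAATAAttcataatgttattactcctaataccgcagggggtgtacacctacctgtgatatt
strong chr12 c (chr12:8600720-8600919, plus strand): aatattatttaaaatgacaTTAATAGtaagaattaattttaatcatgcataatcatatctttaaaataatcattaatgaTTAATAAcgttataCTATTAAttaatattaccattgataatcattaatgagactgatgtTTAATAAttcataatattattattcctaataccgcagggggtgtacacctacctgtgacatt
These windows lie on different chromosomes and share an uninterrupted run of 40 bp. Aligned without gaps, the chromosome 3 and chromosome 12 windows were identical at 95.5% of 200 positions, and the chromosome 14 window matched them at 74.5% and 74.0%. The next sequences are windows of peaks in clusters of 8 and 7 peaks beside long assembly gaps (runs of at least 1 Mb without known bases), on the plus strand of chromosome 4 and the minus strand of chromosome 21.
gap chr4 d (chr4:49251319-49251468, plus strand): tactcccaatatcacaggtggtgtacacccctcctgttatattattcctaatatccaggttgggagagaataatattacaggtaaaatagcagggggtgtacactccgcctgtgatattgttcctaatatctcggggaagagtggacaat
gap chr21 d (chr21:9730485-9730634, minus strand): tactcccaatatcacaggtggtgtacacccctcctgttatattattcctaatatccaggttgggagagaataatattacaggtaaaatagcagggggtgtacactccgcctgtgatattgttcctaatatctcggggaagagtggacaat
They were identical at 100% of 150 positions and held no YTAWTAR match. The closest pair of peaks that made up a whole cluster lay in an intron of SOX5, and both of its 200 bp windows held 2 matches.
close pair SOX5 a (chr12:23844474-23844673, plus strand): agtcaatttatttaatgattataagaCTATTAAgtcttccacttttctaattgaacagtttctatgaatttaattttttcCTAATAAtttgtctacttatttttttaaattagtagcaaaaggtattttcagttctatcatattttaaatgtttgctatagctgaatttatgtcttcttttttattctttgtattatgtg
close pair SOX5 b (chr12:23844805-23845004, plus strand): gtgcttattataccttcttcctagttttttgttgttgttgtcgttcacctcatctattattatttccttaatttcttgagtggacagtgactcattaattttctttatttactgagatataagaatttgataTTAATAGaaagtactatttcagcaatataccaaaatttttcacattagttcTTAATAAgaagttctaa
A pair on chromosome 13 that was in neither construct list contained a short tandem repeat in its stronger peak. That window held no match at an A/T content of 80.5%, and 69.6% of its peak's positions carried the same base 32 bp further on.
repeat chr13 b (chr13:87726737-87726936, plus strand): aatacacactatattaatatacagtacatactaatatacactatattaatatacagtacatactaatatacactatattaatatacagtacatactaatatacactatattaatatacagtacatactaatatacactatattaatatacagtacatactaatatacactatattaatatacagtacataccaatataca
The largest clusters were represented by the strongest peak of the chromosome 20 cluster of 14 peaks, without a match, and by the strongest peak of a chromosome 1 cluster of 8 peaks, a repeat of lower A/T content (55.0%).
large chr20 g (chr20:29620666-29620865, plus strand): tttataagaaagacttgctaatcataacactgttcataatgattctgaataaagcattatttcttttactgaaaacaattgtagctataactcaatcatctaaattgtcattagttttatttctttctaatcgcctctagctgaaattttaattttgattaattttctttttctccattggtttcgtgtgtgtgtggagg
large chr1 c (chr1:228729170-228729369, plus strand): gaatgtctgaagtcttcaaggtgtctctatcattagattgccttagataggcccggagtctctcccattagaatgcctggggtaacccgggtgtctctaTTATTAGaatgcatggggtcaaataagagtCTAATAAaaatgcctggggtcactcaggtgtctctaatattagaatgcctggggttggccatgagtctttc
For comparison, the strongest isolated peak lay in an intron of A1CF, the gene of an RNA-editing cofactor, and its window held 7 matches.
isolated A1CF (chr10:52621283-52621482, plus strand): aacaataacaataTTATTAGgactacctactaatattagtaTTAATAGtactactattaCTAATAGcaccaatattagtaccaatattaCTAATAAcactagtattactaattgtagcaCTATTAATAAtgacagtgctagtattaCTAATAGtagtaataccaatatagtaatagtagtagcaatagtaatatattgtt

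Most clusters were pairs. Of the 2328 clusters, 1951 (83.8%) held 2 peaks, 286 held 3, 52 held 4, 16 held 5 and 23 held 6 or more, so the 23 largest accounted for 169 of the 5217 peaks. The median cluster spanned 5311 bp between its outer midpoints, and the largest, with 14 peaks, spanned 36.9 kb. Adjacent midpoints within clusters were a median of 4298 bp apart (quartiles 2056 and 7000 bp, 2889 pairs), and 703 of these pairs (24.3%) lay at most 2 kb apart.

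The closest midpoints of any pair were 327 bp apart. Up to 1 kb there were 289 pairs, and beyond it the number fell from 414 pairs at 1 to 2 kb to 222 pairs at 9 to 10 kb. Beyond it, 230, 246, 214, 237 and 250 pairs fell in the next 5 bins of 1 kb. The limit itself marked no step, since the last members had a neighbour at 9994 bp and the first peak outside had one at 10005 bp. The 382 peaks with a nearest neighbour at 9 to 10 kb had a median fold enrichment of 7.39 and a mean A/T content of 72.5%, and the 382 peaks at 10 to 11 kb had 7.05 and 73.0%.

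**Figure D1:**
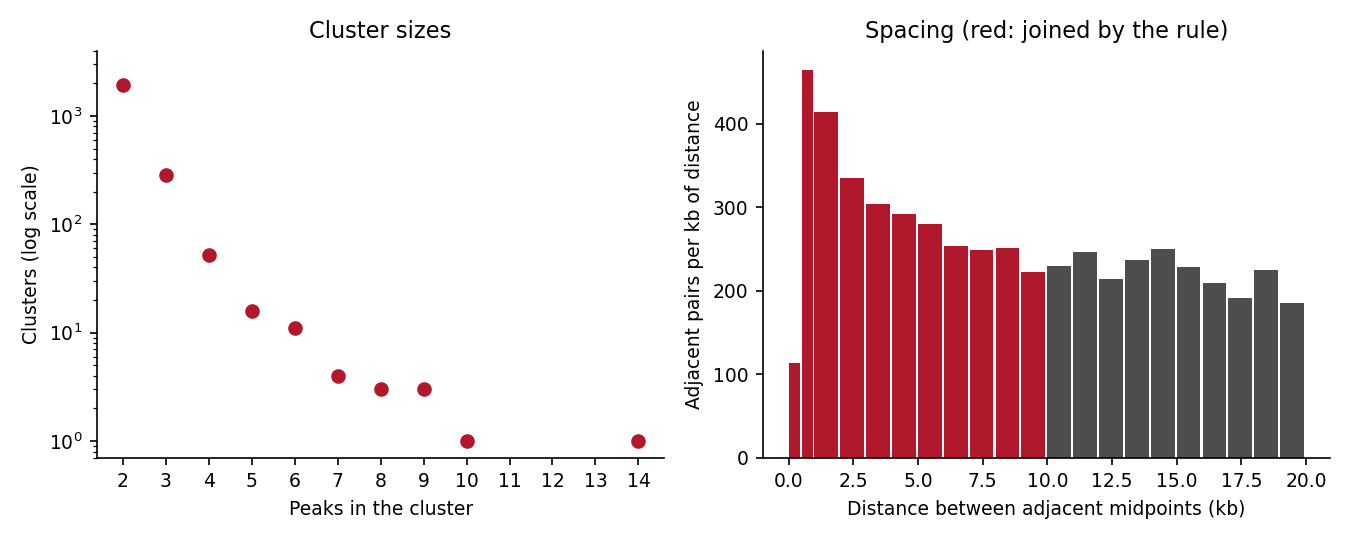
Left, number of clusters (log scale) against peaks per cluster; right, adjacent pairs of FL peaks per kb of distance between midpoints, with distances joined by the rule in red. Pairs made up 1951 of 2328 clusters, and the pair count fell from 414 at 1 to 2 kb to 222 at 9 to 10 kb.

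Clustered peaks were about as strong as isolated ones. The median fold enrichment (the authors' ratio of ChIP signal to local background) was 7.19 (quartiles 5.68 and 10.6) in clusters and 7.33 (5.82 and 10.8) in isolated peaks, and the median width was 320 and 312 bp. Over the 36 chromosome arms with at least 20 clustered peaks, the clustered median was the higher in 18 and the lower in 16. Within clusters, adjacent peaks resembled each other in strength weakly. The Spearman correlation of their fold enrichments was 0.17 for the 289 pairs up to 1 kb apart, 0.14 for the 931 pairs at 2 to 5 kb and 0.021 for the 1255 pairs at 5 to 10 kb, a description over pairs that share a library.

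The DNA around clusters was richer in A/T than that around isolated peaks, whereas the peaks themselves differed little. In the 200 bp at the midpoint, A/T content was 72.7% ± 5.47 in clustered and 72.3% ± 5.49 in isolated peaks (mean ± SD over peaks), against 59.1% for the genome. In the 10 kb around each peak, with all listed peaks left out, it was 63.4% ± 3.57 and 62.0% ± 4.02. The surrounding A/T content was higher at clustered peaks in 33 of 36 arms, the exceptions being 4p, 12p and Xp.

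When all peaks were ranked by surrounding A/T content and divided into 5 equal parts, the clustered share rose from 13.8% (12.8 to 14.8) in the most G/C-rich part through 17.6%, 23.2% and 26.3% to 33.1% (31.8 to 34.5) in the most A/T-rich. Weighted over these 5 parts, the difference in the 200 bp window went from 0.355 to −0.0820 percentage points, so its sign depended on the surroundings.

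The number of consensus matches differed little between clustered and isolated peaks. A 400 bp window held 2.66 ± 1.65 YTAWTAR matches in clustered and 2.78 ± 1.54 in isolated peaks, and at least 1 match was present in 95.1% (94.5 to 95.7) and 97.1% (96.9 to 97.4), where 96.7% of all peaks held one. At least 3 matches were present in 49.8% of clustered and 54.6% of isolated peaks. The mean number was lower in clustered peaks in 22 of 36 arms and higher in 14. In the most G/C-rich of the 5 parts it was higher, 3.05 against 2.82, and the difference of −0.128 matches became −0.0451 when weighted over arms, 4 equal classes of fold enrichment and the 5 parts, away from long assembly gaps. Outside the peaks, the 10 kb around clustered peaks held 1.06 matches per kb and that around isolated peaks 0.971 per kb, against 0.818 per kb for the genome, and the clustered value was the higher in 30 of 36 arms. Within the 5 parts of surrounding A/T content this second difference shrank from 0.0925 to 0.00771 matches per kb.

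Inside clusters the matches were gathered under the peaks. Of 27519 matches within the cluster spans, 14165 (51.5%, 50.9 to 52.1) lay in peaks, which covered 13.8% of the span. The density was 7.24 matches per kb in the peaks and 1.09 per kb between them. Around isolated peaks it was 0.971 per kb. Isolated peaks too held their matches at the peak, with a mean of 2.78 per 400 bp window beside 2.66 in clustered peaks. The gathering under peaks was therefore not particular to clusters.

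Clustered peaks were more often outside genes than isolated peaks, by an amount that depended on their surroundings. Of clustered peaks, 63.2% (61.9 to 64.5) were outside protein-coding genes, compared with 58.9% (58.1 to 59.6) of isolated peaks and 59.9% of all peaks. The median distance to the nearest transcription start site was 213372 bp for clustered and 137604 bp for isolated peaks. Promoters, within 1 kb of a start, held 0.424% of all peaks, 14 clustered (0.268%) and 83 isolated (0.470%). Weighted over arms, 4 equal classes of fold enrichment and the 5 parts of surrounding A/T content together, the difference in intergenic share went from 4.32 to 1.85 percentage points, and to 0.650 points away from long gaps.

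Within genes, the clustered share of peaks was higher in longer genes. A gene needs at least 2 peaks to hold a cluster, and a longer gene has room for more peaks. The median lengths that follow are therefore a description. The 660 protein-coding genes with at least 2 peaks of a cluster inside had a median length of 209 kb, compared with 120 kb for the 4157 genes with any peak and 27.2 kb for all 20163 genes. The clustered share of peaks was 18.04% (16.4 to 19.8) in genes up to 100 kb, 20.2% in genes of 100 to 300 kb, 21.4% in genes of 300 kb to 1 Mb and 26.8% (24.2 to 29.6) in longer genes. Outside genes it was 24.1%. The mean surrounding A/T content of the peaks rose over the same classes from 60.4% to 63.9%.

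The genes with the most clustered peaks were large. CSMD3, which encodes a large membrane protein of the brain, held 50 peaks, 22 of them clustered in 9 clusters. ZFPM2, a cofactor of GATA factors, had 19 of 34 peaks clustered, and EYS, a photoreceptor gene, 17 of 40. RYR2, the cardiac calcium release channel, had 14 of 26, RIMS2, which acts in synaptic vesicle release, 11 of 26, and CADM2, a synaptic adhesion molecule, 12 of 28. In these genes between 42.3% and 55.9% of peaks were clustered.

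In others most of the peaks were clustered. SLC25A48 (chr5:134812603-135225459, plus strand), a mitochondrial carrier gene, had 13 of 14 peaks clustered, DACH1 (chr13:72012098-72441342, minus strand), a transcriptional regulator, 12 of 13, and DENND1B, an exchange factor for Rab proteins, 11 of 15. Among genes of at least 100 kb with at least 5 clustered peaks, ARMC3 had the highest density, with all 6 of its peaks clustered (54.3 per Mb). It was followed by PTPRC, which encodes the leukocyte phosphatase CD45, with 6 of 8 clustered (50.4 per Mb), and by SPINK5, a protease inhibitor of epidermis, with 5 of 5 (44.8 per Mb). KIFAP3, a kinesin adaptor, followed with 7 of 9 and GPATCH2 with 8 of 10. Of the genes that lead in number or density, CSMD3, ZFPM2, RIMS2 and PKHD1L1 lie on 8q and RYR2, DENND1B, PTPRC, KIFAP3, GPATCH2 and SPATA17 on 1q.

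The clustered peaks of these genes were mostly present with the mutants and under the inhibitors. Of the 22 in CSMD3, 20 were listed with ∆HD, 21 with N-C1, 19 under camptothecin and 21 under ICRF-193. In DACH1 the counts were 11, 10, 12 and 12 of 12. Over all FL peaks, 88.6%, 95.2%, 81.7% and 92.9% were present in these lists. An ATAC peak overlapped 3.42% of all FL peaks in native cells and 4.64% in cells with FL Satb1. No overlap among the few clustered peaks of a gene is therefore usual. None of the clustered peaks of ZFPM2, EYS, DACH1, CADM2, DENND1B or RIMS2 overlapped an ATAC peak in either state, whereas 4 of 13 in SLC25A48 did so in native cells and 10 of 13 in cells with FL Satb1.

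For all gene lists but the contactins, the counting interval of the clustered share held the share of genes of their lengths. Intervals of lists with few peaks were wide, so this does not show that the shares were close. Contactins and contactin-associated proteins, which guide axons and organise nodes, had 29 of 78 peaks clustered (37.2%, 26.5 to 48.9), and genes of the same length classes had 24.1%. CNTN5 alone held 10 of the 29. Type II cadherins had 30.5% (19.2 to 43.9) against 24.2%, with 10 of 18 clustered peaks in CDH12. The intervals of protocadherins (17 of 68 peaks), neurexins and neuroligins (27.9%), teneurins (6 of 24), ionotropic glutamate receptors (12 of 63), the ERBB receptors and neuregulins (25.9%), olfactory receptors (7 of 25), SLITRK genes (0 of 3) and large fragile-site genes (24.9%) all held the share of genes of their lengths. Zinc finger genes had 13 of 103 peaks clustered (12.6%, 6.89 to 20.6), with 19.6% for their lengths. Genes of breast epithelium held few peaks. Basal markers had 4 of 7 clustered (interval 18.4% to 90.1%), in TP63 and ITGA6, with 19.6% for genes of their lengths. Neither the 4 peaks in luminal markers nor the 11 in genes of the epithelial to mesenchymal transition, among them ZEB1 and CDH2, were clustered. Their intervals reached up to 60.2% and 28.5%, with 20.6% and 19.8% for genes of their lengths. Each of these intervals held the share for its lengths.

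The clustered share varied among chromosome arms by more than their counting intervals. Among the 37 arms with at least 100 peaks it was highest on 1q, where 658 of 1619 peaks were clustered (40.6%, 38.2 to 43.1) at 15.4 peaks per Mb, and on 1p it was 13.4% (10.9 to 16.1) at 5.90 peaks per Mb. The arms 8q and 8p had 31.3% at 14.2 peaks per Mb and 20.2% at 6.91 per Mb, and 13q had 33.6% at 12.3 per Mb. Density and clustered share rose together over the 37 arms with at least 100 peaks (Spearman rho 0.55, a description). The arm 16p stood apart, with 36.9% (29.4 to 44.9) at 4.57 peaks per Mb, and 4q, at 10.8 per Mb, had 20.7%. The lowest share was 8.18% on 22q (9 of 110 peaks). Without 1q, 8q and 13q the clustered share of the remaining peaks was 19.9%.

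The high density of 1q was shared by the other lists of these cells. The ∆HD, N-C1, camptothecin and ICRF-193 lists held 34.9, 44.5, 17.6 and 25.8 peaks per Mb on 1q. On 1p they held 14.1, 17.3, 6.17 and 9.72 per Mb. On 1q and 1p the clustered share was 61.4% and 32.3% in the ∆HD list, 72.3% and 41.9% in the N-C1 list, 48.1% and 21.7% under camptothecin and 56.6% and 30.8% under ICRF-193. ATAC peaks too were denser on 1q, with 111 per Mb in native cells and 137 per Mb in cells with FL Satb1, compared with 71.8 and 86.6 per Mb on 1p. On 13q, also dense in FL peaks, ATAC peaks stood at 47.0 and 55.1 per Mb. The median fold enrichment of FL peaks was 6.60 on 1q and 7.30 on 1p. The part of peak density in these shares was not tested, and the depth behind each list is not known.

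**Figure D2:**
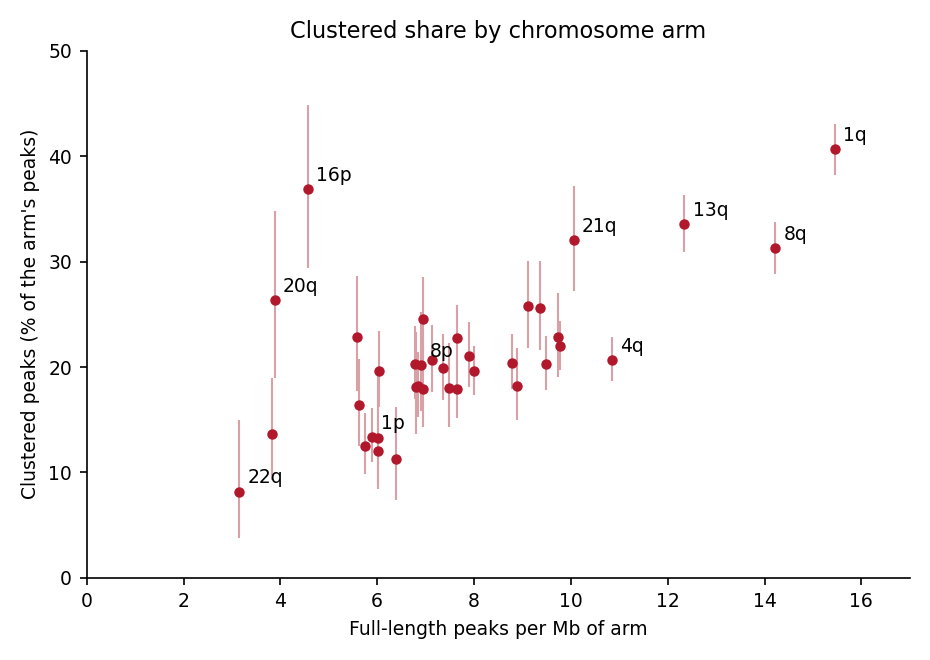
Share of FL peaks that were clustered (percent, exact 95% binomial intervals as bars) against FL peaks per Mb, 1 point per chromosome arm with at least 100 peaks. The arms 1q, 8q and 13q lie at the upper right with 40.6%, 31.3% and 33.6%, and 16p reaches 36.9% at a density of 4.57 per Mb.

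The largest clusters differed in kind from the pairs. Isolated peaks, pairs and clusters of 3 had median fold enrichments of 7.33, 7.33 and 7.24, whereas clusters of 4, 5 and 6 or more had 6.71, 5.96 and 5.22. The mean number of matches per 400 bp went from 2.78 in isolated peaks and 2.74 in pairs to 1.41 in clusters of 6 or more, of which 71.6% of peaks (64.2 to 78.3) held any match. Mean A/T content at the midpoint was 72.8% in pairs and 68.5% in clusters of 6 or more.

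Many of the largest clusters lay beside runs of undetermined sequence. Of the 169 peaks in clusters of 6 or more, 59.2% were within 1 Mb of a long assembly gap, compared with 43.8% in clusters of 5, 11.5% in clusters of 4, 5.36% in clusters of 3, 2.20% in pairs and 1.25% of isolated peaks. Over all peaks 2.23% were so placed, 291 clustered and 220 isolated. Of the 23 clusters of 6 or more, 13 were beside such a gap and the other 10 (69 peaks) were farther away. Of these 23, 1 held a protein-coding gene, SLC25A48. Among peaks away from the gaps, clusters of 6 or more (69 peaks) still had 1.90 matches per 400 bp and a median fold enrichment of 6.37, and isolated peaks 2.79 and 7.33.

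Peaks of larger clusters resembled peaks elsewhere in sequence. A peak was taken to share sequence with another where at least 10% of the 16 bp words in its 300 bp window occurred in the window of the other, on either strand. This held for 6.65% (6.28 to 7.02) of isolated peaks, 7.70% of peaks in pairs, 16.4% in clusters of 3, 27.4% in clusters of 4, 71.3% in clusters of 5 and 58.0% (50.2 to 65.5) in clusters of 6 or more. Of the 652 clustered peaks with a partner, 72 (1.38% of clustered peaks) had one in the same cluster. In clusters of 6 or more this differed by place. Away from long gaps, 13 of the 25 peaks with a partner had one in the same cluster, and beside them 0 of 73. Of the 23 clusters of 6 or more, 10 had a peak sharing at least 50% of its words with a peak of such a cluster on another chromosome, and 9 of these 10 lay beside a long gap. Away from the gaps, 9.07% of clustered and 6.01% of isolated peaks shared sequence with another peak. On chromosome Y, 23 of 44 peaks were clustered. Peaks of a cluster of 6 there shared 31.9% to 81.6% of words with peaks of a chromosome 21 cluster, in 5 pairs compared over whole peaks. How reads from such copies were placed was not tested, so the strength of these peaks is uncertain.

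**Figure D3:**
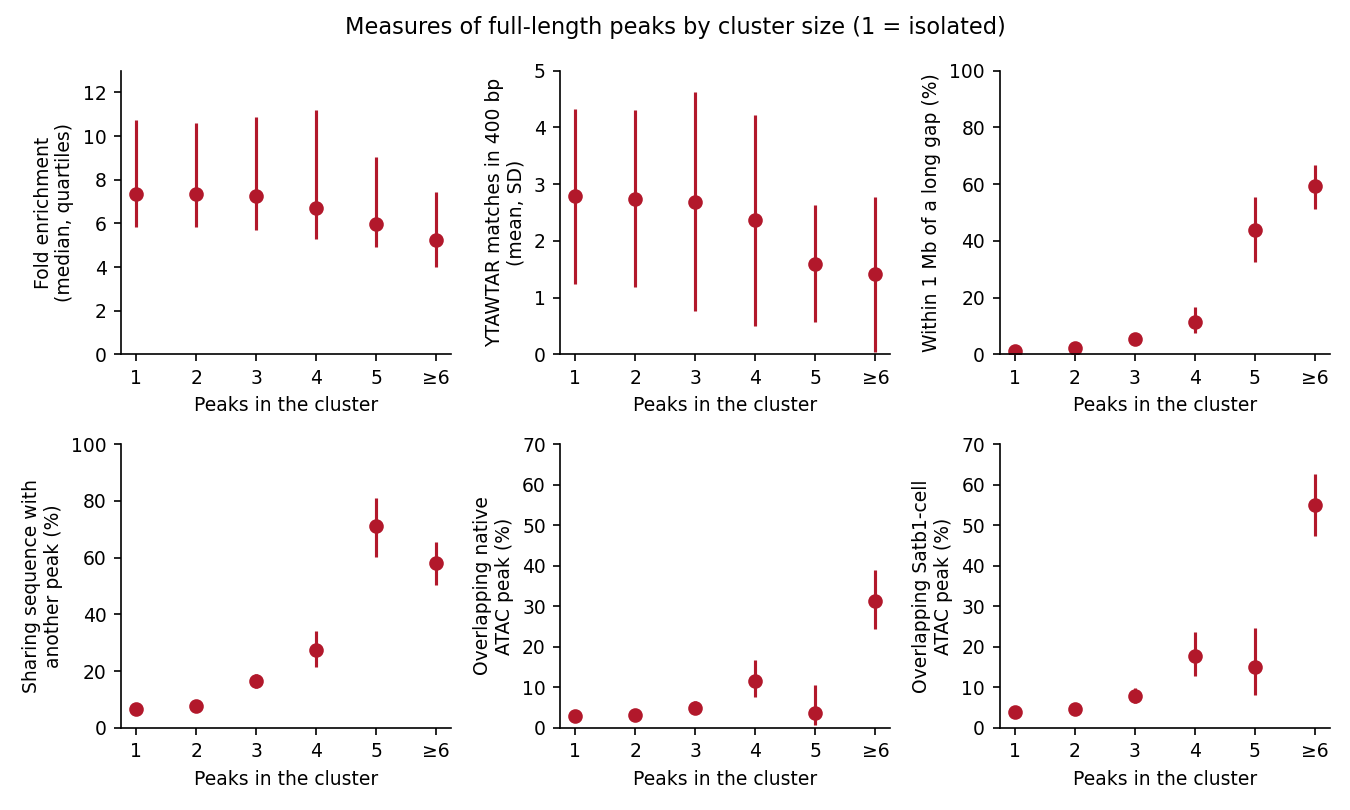
Fold enrichment (median, quartiles), YTAWTAR matches per 400 bp (mean, SD) and shares of peaks (percent, exact 95% binomial intervals) against the number of peaks in the cluster, with isolated peaks at 1. Median fold enrichment goes from 7.33 to 5.22 and the share overlapping an ATAC peak of cells with FL Satb1 from 3.83% to 55.0%.

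The cluster with the most peaks, 14 at chr20:29600888-29638810, lay 0.182 Mb from a long gap and overlapped the pseudogenes FRG1BP and MLLT10P1. Its fold enrichments ran from 2.19 to 9.91, 8 of its peaks held no match, and 13 of 14 overlapped ATAC peaks in both states. A cluster of 9 at chr1:142803002-142835112, 0.268 Mb from a gap, had fold enrichments of 3.16 to 14.2, and 5 of its peaks overlapped ATAC peaks in cells with FL Satb1 and 0 in native cells. A cluster of 8 at chr1:228721372-228742064, away from gaps, had a mean A/T content of 54.0% at its midpoints, and all 8 peaks were accessible in cells with FL Satb1 and 5 in native cells.

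The second largest cluster lay in an intron of SLC25A48 at chr5:135109856-135144078 and spanned 32.1 kb. Its 10 peaks had fold enrichments of 5.32, 5.54, 4.86, 6.78, 11.2, 5.86, 4.31, 3.68, 23.8 and 28.7 from the lower coordinate upward. The strongest was also the widest, at 4017 bp, and 6 of the 10 windows held no match. All 10 peaks were listed with ∆HD and with N-C1, and 8 under each inhibitor, the missing ones being the seventh and eighth, the weakest. A like cluster of 8 peaks at chr16:10791357-10817438, lying 3.42 kb from the start of TEKT5, a tektin gene, had fold enrichments of 28.4, 4.01, 15.02, 18.8, 18.8, 21.98, 4.59 and 10.2 and was whole in all 4 other lists.

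The clusters with the largest summed fold enrichment were small and intergenic. The cluster at chr14:52208777-52222833 had 4 peaks of fold enrichment 55.4, 48.4, 46.0 and 16.6, which held 13, 8, 5 and 1 matches per 400 bp. The cluster at chr3:75649716-75662935 had 4 peaks of 6.37, 47.7, 50.9 and 48.8 with 1, 6, 10 and 9 matches. The cluster at chr12:8596132-8601339, 7.81 kb from the start of CLEC6A, a C-type lectin gene, had 3 peaks of 44.4, 51.1 and 54.9 with 5, 11 and 7 matches. In each, the peaks with 5 or more matches were those above 40, and all 11 peaks were present with both mutants and under both inhibitors. The strongest isolated peaks reached similar values, 56.8 in A1CF with 8 matches, 56.5 at chr5:4815548-4816695 with 14 and 56.2 at chr13:50992310-50993295 with 10.

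The windows of these 3 clusters printed above contain the word GGGTGTACAC near their ends, searched for on both strands after the sequences had been seen. It contains no YTAWTAR match and occurred in 0.0604% of the 400 bp tiles of the genome, which is not like for like with peaks of varied width. Over the full peak it was found in 149 clustered peaks (2.86%, 2.42 to 3.35) and 63 isolated peaks (0.357%, 0.274 to 0.457), and away from long gaps in 2.72% and 0.344%. By cluster size the share was 1.21% in pairs, 5.85% in clusters of 3, 9.62% in clusters of 4, 0% in clusters of 5 (0 of 80, interval up to 4.51%) and 18.9% in clusters of 6 or more. In 34 clusters every peak held it. Because the word was read from clusters chosen for their strength, the shares were also taken without those 3 clusters, which left 138 clustered peaks with it (2.65%, 2.23 to 3.13). In windows of 400 bp it was then in 2.21% (1.83 to 2.65) of clustered and 0.261% (0.191 to 0.348) of isolated peaks.

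The strength of peaks with this word varied widely. Without the 3 clusters, the 138 clustered peaks that held it had a median fold enrichment of 18.8 with quartiles of 6.05 and 47.0, and the 63 isolated ones 44.7. The word was chosen from strong and wide peaks, so these values are a description. All 4 peaks of the chromosome 14 cluster, all 4 of the chromosome 3 cluster and all 3 of the chromosome 12 cluster held the word. It was also in 7 of the 10 peaks of the SLC25A48 cluster (33 copies) and in 6 of the 8 near TEKT5 (41 copies). Over whole peaks, peaks of these clusters shared up to 16.2% and 14.7% of 16 bp words with peaks of the chromosome 3 cluster. Leaving out the 3 clusters therefore did not leave a set unrelated to them in sequence. Of the 138 clustered peaks with the word, 57.2% overlapped an ATAC peak of cells with FL Satb1 and 26.8% one of native cells. Of clustered peaks without it, 5.97% and 4.09% did. Overlap needed 1 bp, and the median width was 949 bp in the 149 clustered peaks with the word and 317 bp in those without. Among isolated peaks the shares were 23.8% and 4.76% with the word, and 3.75% and 3.03% without it.

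**Figure D4:**
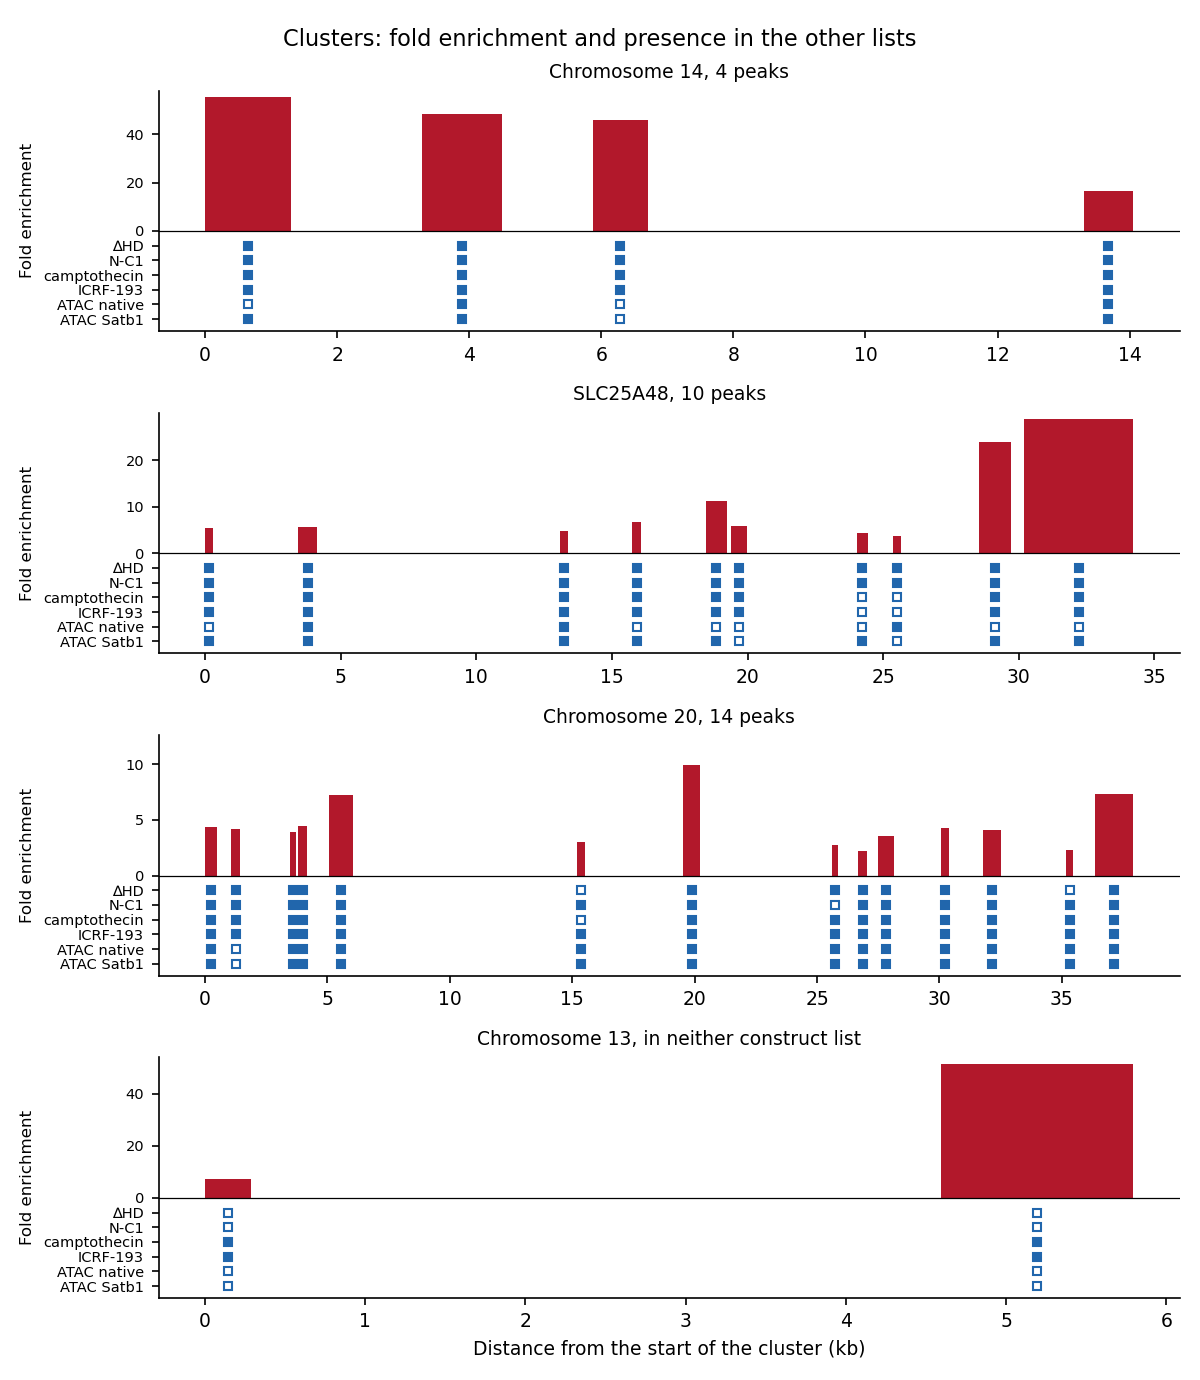
Fold enrichment of each FL peak (bars, drawn at the width of the peak) against distance in kb from the start of 4 clusters, with squares below filled where the peak overlaps a peak of the named list and open where it does not. The 4 peaks on chromosome 14 were in all 4 ChIP lists, the SLC25A48 cluster lacked 2 peaks under each inhibitor, and neither peak on chromosome 13 was in a construct list.

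Satb1 peaks rarely overlapped accessible chromatin. Clustered peaks did so more often than isolated ones in cells with FL Satb1, whereas in native cells the difference depended on the ATAC threshold. In native cells 3.42% of all FL peaks shared at least 1 bp with an ATAC peak, 4.72% of clustered (246 peaks) and 3.04% of isolated (536 peaks). The share was 3.15% in pairs, it was lower in clustered peaks in 14 of 36 arms, and with ATAC peaks of −log10 q of at least 5 the difference of 1.68 points became 0.364 (−0.119 to 0.888). In cells with FL Satb1 the shares were 4.64% of all, 7.40% of clustered (386 peaks) and 3.83% of isolated (676 peaks). The 2 ATAC lists differ in length, 175989 and 206170 peaks, and the depth behind each is not known, so a difference between the states cannot be told apart from a difference in calling.

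The difference was largest in the bigger clusters. The share in cells with FL Satb1 was 4.54% (3.90 to 5.24) in pairs, 7.81% in clusters of 3, 17.8% in clusters of 4, 12 of 80 peaks in clusters of 5 and 55.0% (47.2 to 62.7) in clusters of 6 or more. Away from long gaps it was 42.0% (30.2 to 54.5) in the last class. That is 29 of 69 peaks from 10 clusters, and the clusters differed. All 8 peaks of a chromosome 1 cluster and most of the 10 in SLC25A48 overlapped, but none of the 6 in a chromosome 3 cluster. The interval treats these peaks as separate and does not cover the spread between clusters. Among peaks that shared no sequence with another, the overlapping share was 5.13% in clusters and 3.52% in isolated peaks, and among those that did, 23.3% and 8.18%. It also depended on the surroundings, with 25.6% of clustered and 8.70% of isolated peaks in the most G/C-rich part and 1.78% and 0.948% in the most A/T-rich.

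Whole clusters in accessible chromatin were few. All peaks overlapped an ATAC peak in 14 clusters in native cells and in 36 in cells with FL Satb1, and at least 1 peak did in 179 (7.69%) and 241 (10.4%). The most prominent was a cluster of 4 at chr1:224734889-224741056 in CNIH3, which encodes an auxiliary subunit of AMPA receptors, with fold enrichments of 14.9, 11.6, 5.51 and 30.7. A cluster of 3 peaks (fold enrichment 9.93 to 23.9) lay 1.02 kb from the start of ABCC6, a membrane transporter gene, at chr16:16318204-16322616. Both were present whole in all 4 other lists. Another, of 4 peaks at chr9:68415051-68420828, was weak, with fold enrichments of 3.01 to 6.35.

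Clustered peaks were present with the mutant proteins about as often as isolated ones. With ∆HD, 88.6% of all FL peaks shared at least 1 bp with a listed peak, 88.4% (87.5 to 89.2) of clustered and 88.6% (88.2 to 89.1) of isolated peaks. With N-C1, 95.2% of all were present, 94.8% of clustered and 95.3% of isolated. The differences were −0.257 percentage points (−1.27 to 0.724) and −0.514 points (−1.22 to 0.156). These lists hold 50537 and 62856 peaks, more than the FL list. Reduced to their strongest 22877 peaks, the ∆HD list held 71.8% of clustered and 72.2% of isolated peaks (72.1% of all), and the N-C1 list 74.6% and 78.1% (77.3% of all). In every shortened list, those under the inhibitors included, peaks of clusters of 6 or more were present less often than those of pairs, 56.2% against 72.7% with ∆HD, 39.6% against 77.0% with N-C1, 60.4% against 82.3% under camptothecin and 49.1% against 82.3% under ICRF-193. Away from long gaps the ∆HD values went the other way, 79.7% (68.3 to 88.4) against 72.9%. There N-C1 had 55.1% against 77.3%, camptothecin 69.6% against 82.7% and ICRF-193 63.8% against 82.9%. Shortening kept peaks by fold enrichment, and the FL median was 5.22 in clusters of 6 or more and 7.33 in pairs.

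Under the inhibitors clustered peaks as a whole were present more often, whereas the values for the largest clusters varied between lists. Under camptothecin 81.7% of all FL peaks were listed, 84.9% of clustered and 80.7% of isolated, a difference of 4.15 percentage points (2.99 to 5.28). Under ICRF-193, 92.9% were listed, 94.7% of clustered and 92.4% of isolated, a difference of 2.24 points (1.49 to 2.96). With each list reduced to 22877 peaks, the shares were 81.8% and 79.0% under camptothecin (79.6% of all) and 80.6% and 79.2% under ICRF-193 (79.5% of all). Peaks of clusters of 6 or more were present at 89.9% in the full ICRF-193 list and at 83.4% (77.0 to 88.7) in the full camptothecin list, and in the shortened lists their shares, given above, were below those of isolated peaks. The clustered share was the higher in 30 of 36 arms for each drug, and 8q, 17q and Xq were exceptions in both.

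The difference was found in the weaker peaks. When peaks were divided into 4 equal classes of fold enrichment, 65.4% of clustered and 56.2% of isolated peaks of the weakest class were present under camptothecin, and 85.3% and 80.4% under ICRF-193. In the next class the shares were 79.8% and 71.6%, and 94.9% and 90.1%. In the class after it they were 96.1% and 94.4% under camptothecin, and in the strongest class nearly every peak was present in either class. Weighted over the 5 parts of surrounding A/T content, the differences were 2.18 and 1.15 points, and weighted over arms, strength classes and these parts together, 2.02 and 1.18 points.

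**Figure D5:**
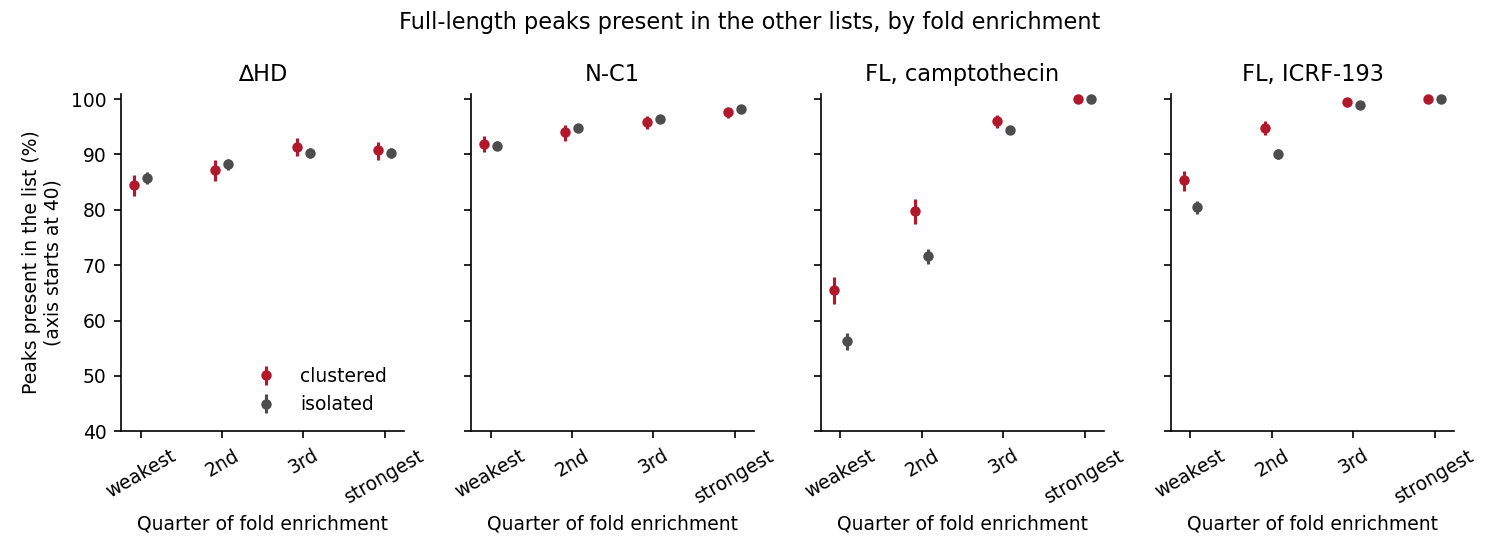
Share of FL peaks present in each other list (percent, axis from 40, exact 95% binomial intervals) for clustered and isolated peaks in 4 equal classes of fold enrichment. Under camptothecin the weakest class shows 65.4% of clustered against 56.2% of isolated peaks, and the clustered and isolated peaks meet in the strongest class.

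A wide peak of another list can cover both members of a close pair. Of FL pairs up to 500 bp apart with both peaks present, 1 peak of the other list covered both in 40 of 40 with ∆HD, 35 of 45 with N-C1, 37 of 46 under camptothecin and 44 of 53 under ICRF-193. At 2 to 10 kb this held for at most 0.292% of pairs in any list. With an overlap of at least 50% of both peaks, the difference between clustered and isolated peaks was −4.67 points for ∆HD, −4.47 for N-C1, 0.653 (−0.600 to 1.88) for camptothecin and −3.27 (−4.33 to −2.23) for ICRF-193. The sign for ICRF-193 thus depended on how overlap was counted.

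Most clusters were present whole in each other list. Every peak was listed in 1787 of 2328 clusters with ∆HD (76.8%, 74.99 to 78.5), 2069 with N-C1 (88.9%, 87.5 to 90.1), 1629 under camptothecin (69.97%, 68.1 to 71.8) and 2069 under ICRF-193 (88.9%, 87.5 to 90.1). A further 498, 249, 640 and 245 were present in part, and 43, 10, 59 and 14 were missing altogether. A whole cluster demands several peaks at once. For pairs, the share present whole was 78.1% with ∆HD, 90.0% with N-C1, 71.8% under camptothecin and 90.5% under ICRF-193, and the square of the share of single peaks of pairs came to 77.4%, 89.8%, 71.3% and 90.0%. These products lay within the counting intervals of the shares present whole. Whether the members of a pair were listed independently was not tested. In the same order of lists, 42, 10, 58 and 14 pairs were missing altogether.

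A larger cluster needs more listed peaks to be whole and more unlisted peaks to be missing, so both are rarer with size by counting alone. Of the 91 clusters of 4 or more, 61.5%, 79.1%, 51.6% and 63.7% were whole in the same order of lists, and none was missing altogether from any list. A product of single shares was taken for pairs only, so these values are a description. In all 4 lists together 1184 clusters (50.9%) were whole, and 73.1% of clustered and 70.1% of isolated peaks were present in all 4. Within pairs up to 1 kb apart, a peak was present with ∆HD in 90.3% of cases where its neighbour was and in 67.1% of the 73 cases where its neighbour was not. For pairs at 5 to 10 kb these shares were 88.6% and 85.8%. Under camptothecin the values were 86.0% and 81.2% up to 1 kb, and 84.4% and 78.04% at 5 to 10 kb. Of pairs with both peaks listed, 1 ∆HD peak covered both in 40 of 40 up to 500 bp and 67 of 188 at 500 to 1000 bp. Under camptothecin this held for 37 of 46 and 26 of 166. Such a peak counts both members as present, so the shares up to 1 kb are not those of separate peaks alone.

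No peak of 9 clusters (0.387% of 2328) was in either construct list. The strongest was the chromosome 13 pair at chr13:87721643-87727437, with fold enrichments of 7.33 and 51.4, the second being the tandem repeat printed above. Next came a pair in PJA2, a ubiquitin ligase gene, at chr5:108688382-108690629 (21.3 and 18.6) and a pair at chr4:172015220-172019798 (5.13 and 18.6), with mean A/T contents of 82.8% each. All 3 were present whole under both inhibitors. Of isolated peaks, 708 (4.01%) were in neither construct list, a share of single peaks that is not like for like with clusters.

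No peak of 10 clusters (0.430% of 2328) was in either drug list, and those with the largest summed fold enrichment were weaker. They were the pairs at chrX:5365797-5367886 (7.03 to 7.74), chr15:79986068-79986849 (5.13 to 6.64) and chr10:54187692-54190456 (5.45 to 6.09), all present whole with both mutants. Of isolated peaks, 1131 (6.40%) were in neither drug list, again a share of single peaks. The closest pairs, in SOX5 (331 bp between midpoints), at chr6:102687010-102687610 (343 bp) and in SLC25A14 (347 bp), were present whole in all 4 lists and overlapped no ATAC peak.

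The other lists also placed further peaks beside FL peaks. A peak of the ∆HD list that overlapped no FL peak lay within 10 kb of 33.9% (32.6 to 35.2) of clustered and 24.8% (24.2 to 25.5) of isolated FL peaks. For N-C1 the shares were 45.8% and 32.3%, for camptothecin 14.3% and 6.55% and for ICRF-193 24.6% and 15.7%. With the lists reduced to the FL number, they were 7.05% and 6.43%, 5.83% and 5.01%, 9.07% and 5.23%, and 6.75% and 5.16%. The share of each full list that was clustered by the same rule was 39.5% for ∆HD, 48.1% for N-C1, 27.6% under camptothecin and 35.9% under ICRF-193. Reduced to 22877 peaks, 5033 peaks were clustered with ∆HD, 4817 with N-C1 (21.1%), 5759 under camptothecin (25.2%) and 5480 under ICRF-193 (23.95%), beside the 5217 of the FL list.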

How the data were processed

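Of 20 samples, 7 peak lists of MCF10A cells entered, 5 from ChIP-seq and 2 from ATAC-seq. The 3 lists of a mouse cell line were not used, and the input, TMP-seq and N-terminal samples were not analysed here. Per the study's methods, reads were trimmed with cutadapt, aligned to hg19 with Bowtie2 and called with MACS2 against input DNA (broad peaks for ATAC-seq). The versions of Bowtie2 and MACS2, and whether duplicate experiments were pooled before calling, are not given in the sources used here. Depth is stated as a range over the ChIP libraries, not per list.

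Each deposited list holds, as made by the authors, a fold enrichment over local background (a ratio), −log10 p-values and −log10 q-values, and a display score. The fold enrichment ranked peaks within a list, the −log10 q-value served in an alternative, and the deposited score was not used. Shortened lists kept the 22877 peaks of highest fold enrichment.

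Midpoints at most 10 kb apart were joined on each chromosome. Exact 95% Clopper-Pearson intervals were given for shares. A/T content was measured in 200 bp, the consensus in 400 bp and the surroundings in 10 kb with listed peaks left out, on the reference hg19 sequence, and genes came from GENCODE release 44 on GRCh37. Values of A/T content and motifs leave out 19 peaks (7 clustered) in sequence masked in the reference. Presence needed at least 1 shared bp. Values weighted over arms or classes average the differences within each class, weighted by the product of its clustered and isolated numbers over their sum. Software was Python 3.11.15, numpy 2.4.6, pandas 2.3.3, scipy 1.17.1 and bedtools 2.31.1, and the scripts were tested on simulated data. With 1 list per condition, no test was made.

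Named clusters were the 3 leading ones by number of peaks, by summed fold enrichment, by closest midpoints, by absence from both construct or both drug lists and by accessibility of every peak, besides those of 6 or more peaks. Named genes were the 10 with the most clustered peaks, in number and per Mb. The result for 1 of these genes is not reported here. The members, lists and rules were chosen with earlier results of these data known. The shared words, the word GGGTGTACAC and the alternatives without peaks near gaps, without 3 arms or without the 3 clusters the word came from were chosen after the data had been seen.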

Additional observations from a re-analysis of the deposited data

How the results depend on the processing

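Over 16 alternative settings, 21 results gave 156 values, of which 91 stayed within the reported interval or within 1.5 times the reported count, 64 moved beyond it and 1 reversed. The cause of each movement was not tested. With midpoints at most 5 kb apart there were 3030 clustered peaks (13.2%) in 1396 clusters, the intergenic difference was 6.17 points, the accessible difference 2.64 points in native cells and 5.53 in cells with FL Satb1, the camptothecin difference 5.32 and its whole clusters 72.6%. At 20 kb there were 8659 clustered peaks (37.9%) in 3555 clusters, and the values were 0.566 points of A/T content, −0.0716 matches, 0.632 and 1.78 points of accessibility, and 67.2% (camptothecin) and 87.4% (ICRF-193) whole clusters. With fold enrichment of at least 5 the clustered share was 20.4%, the differences 0.560 points of A/T content, 0.109 in median fold enrichment, −0.0715 matches and 0.646 and 2.27 points of accessibility, and whole clusters 90.5% (N-C1), 74.9% (camptothecin) and 92.3% (ICRF-193). Merging peaks under 1 kb apart gave a clustered share of 20.97%. Without peaks near long gaps it was 22.02%, with differences of −0.0695 matches, 2.78 points intergenic and 0.928 and 2.20 points of accessibility. Without 1q, 8q and 13q it was 19.9%, with −0.0730 matches and new neighbours at 23.3% (∆HD), 30.5% (N-C1), 5.61% (camptothecin) and 14.1% (ICRF-193) of isolated peaks. Windows of 100 and 400 bp gave A/T differences of 0.00689 and 0.878 points. A motif window of 150 bp gave −0.181 matches and the consensus CTAATAR −0.0687. ATAC peaks with −log10 q of at least 5 gave accessibility differences of 0.364 and 1.34 points, and ATAC peaks over the summit 0.925 and 2.20. Lists reduced to the FL number gave presence differences of −3.42 (N-C1), 2.77 (camptothecin) and 1.43 points (ICRF-193), whole clusters of 50.9% (∆HD), 55.6% (N-C1), 66.1% (camptothecin) and 66.2% (ICRF-193), and new neighbours at 6.43%, 5.01%, 5.23% and 5.16%. A reciprocal overlap of 50% reversed the ICRF-193 difference to −3.27 points, gave −4.67 (∆HD), −4.47 (N-C1) and 0.653 points (camptothecin), and left 51.6%, 77.2%, 64.6% and 75.9% of clusters whole. Each condition had 1 list, so that no replicate could be left out, and depth is not known for each list, so that a missing peak may be one under the calling threshold.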

Other observations

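The other ChIP lists held clusters in places without any FL peak. By the same 10 kb rule, 2543 of 8178 clusters of the ∆HD list (31.1%) contained no FL peak, the largest with 9 peaks, as did 4351 of 11589 of the N-C1 list (37.5%, up to 11 peaks). Under camptothecin 198 of 2886 clusters (6.86%, up to 4 peaks) and under ICRF-193 1016 of 5579 (18.2%, up to 6 peaks) contained none. These lists differ in length and the depth of each is unknown, so the shares are values and not a comparison of the conditions.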
